A study of Mus musculus with 10 samples.

Results

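Distal enhancers that lie close together in the mouse genome were examined for the active chromatin mark H3K27ac in the cerebral cortex of mice heterozygous for a Dnmt3a knockout and of wild type littermates. The members were chosen by the table's class, by width and by position. They were the autosomal regions of the deposited table in its enhancer class (prefix enh) that were under 8000 bp wide and over 2000 bp from every region of its promoter classes (prefixes prom and uaProm). Neighbours with gaps of 12.5 kb or less were joined into runs, and runs of 5 or more regions were kept. This gave 3644 regions in 582 runs, of 50898 regions in the table and of 28250 distal autosomal enhancers, so 12.9% of the distal enhancers were members. No pseudo-count entered the choice, although wide regions, which it left out, were brighter per kb.

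Enhancers are stretches of regulatory DNA that raise transcription of genes at a distance. Acetylation of histone H3 at lysine 27 (H3K27ac) marks those that are active, and active enhancers often lie in groups near genes that a cell type transcribes strongly. Grouping by a maximum gap is also the first step in defining super-enhancers, which are then ranked by signal; no such ranking was applied here. DNMT3A is a DNA methyltransferase that adds methyl groups to cytosines, in neurons also outside CG dinucleotides, and DNA methylation at regulatory DNA is commonly associated with lower activity.

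The libraries were H3K27ac chromatin immunoprecipitations (antibody Abcam ab4729) from cortex of C57BL/6J mice aged 8 weeks. Of 10 animals, 5 were heterozygous for a Dnmt3a knockout (Het) and 5 were wild type (WT). They formed 5 pairs of littermates, 3 male (replicates 1, 3 and 5) and 2 female (replicates 2 and 4), so each replicate number stands for 1 pair. Which 2 animals form pair 5 was taken from the column names, not from a litter number in the labels. The label of Het replicate 5 also carries the term cKO in its description, while its genotype field says heterozygous knockout, and it was used as Het. Whole cortex holds many cell types, and fewer cells of a type and less acetylation per cell cannot be told apart. The values are pseudo-counts, that is, read counts that the authors adjusted to a common library size, and a uniform change of acetylation in every region would not show in them. Reads in regions, recovered from these values, ran from 2771534 (WT replicate 5) to 8453140 (Het replicate 2) per library. The median member held from 21 to 63 reads and the median run from 160.5 to 483.5 reads in these same 2 libraries.

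Most runs were near the minimum size. There were 281 runs of 5 regions, 143 of 6, 56 of 7, 37 of 8 and 24 of 9. A further 41 runs had 10 or more regions and together held 477 members, and the largest had 19. The median run was 39.6 kb from its first to its last base (17.5 to 141 kb), and its regions covered a median of 42.6% of that length (18.7% to 73.1%). In all, the runs spanned 25.7 Mb of the genome, of which member regions covered 10.9 Mb. Gaps inside runs had a median of 3890 bp and ranged from 12 to 12498 bp, and the smallest gap that ended a run was 12504 bp. Members were 774 to 7995 bp wide with a median of 2472 bp, and the narrowest region left out for its width was 8000 bp.

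**Figure D1:**
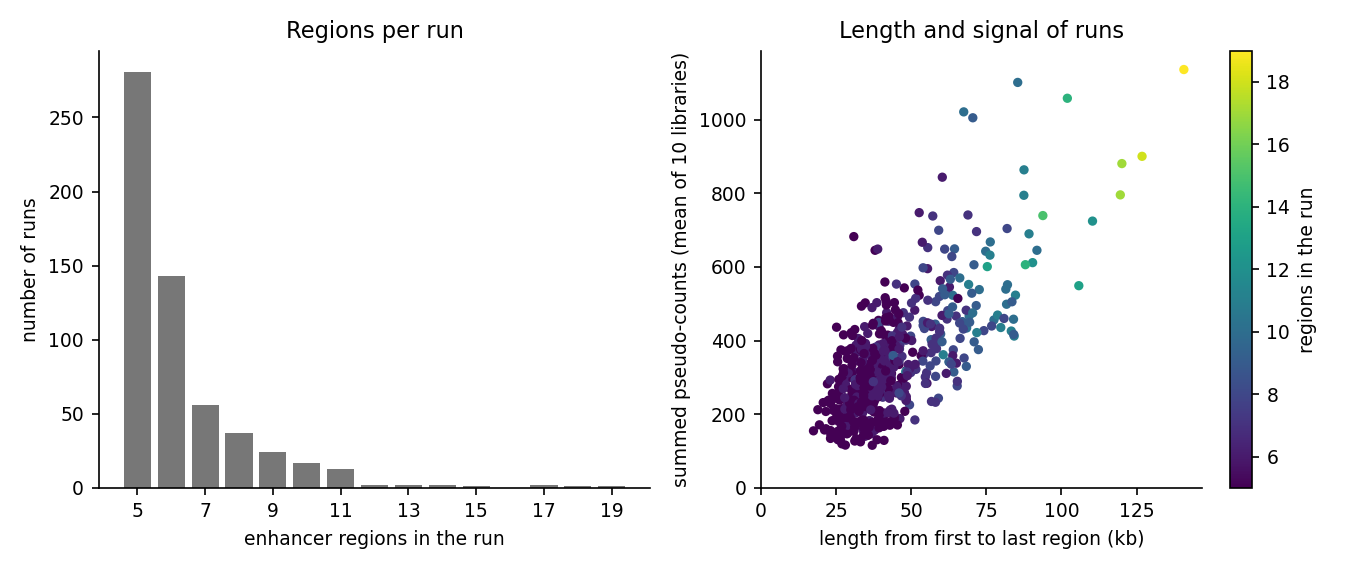
Left, number of runs (y axis) by the number of enhancer regions they hold (x axis). Right, summed pseudo-counts of each run, averaged over the 10 libraries (y axis), against its length in kb (x axis), coloured by its number of regions; longer runs lie higher, up to 1136 pseudo-counts in the run of 19 regions.

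The distance from a run to the nearest promoter region had a median of 19.6 kb, with quartiles of 6.36 and 56.4 kb. It ranged from 2031 bp, just past the limit of 2000 bp that the rule set, to 408 kb. Member by member, the median distance was 43020 bp, against 32710 bp for distal enhancers in runs of 2 to 4 and 34720 bp for distal enhancers with no neighbour within reach. The rule drops enhancer regions close to promoters before joining, which can shorten runs there, so this difference may partly follow from the rule. In 19 runs a promoter region lay between the members. In 10 runs an enhancer region that was no member did. The region numbers of the table have gaps: 28.0% of the enhancer numbers up to 45320 were not in the table used here, and 170 such numbers fell inside 139 of the runs. Those runs may therefore hold more regions than were counted.

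Members were unevenly spread over the chromosomes. On chromosome 13, 261 of 1435 distal enhancers (18.2%) were members, followed by 16.1% on chromosome 15 and 14.9% on chromosome 7. The lowest shares were 10.5% on chromosome 14 and 10.6% on chromosome 17. Runs were also often near each other. The next run lay within 100 kb for 128 runs and within 500 kb for 270 runs, and the median distance was 589 kb. The densest stretch of 1 Mb was chr9:28288041-29281741 (build mm9, as for every position given here), with 7 runs and 43 members.

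Clustered enhancers were not brighter per base than lone ones. Their median value was 41.6 pseudo-counts over a median width of 2472 bp, or 16.9 pseudo-counts per kb. Distal enhancers in runs of 2 to 4 had 17.5 per kb (12875 regions) and lone distal enhancers 18.0 per kb over a median width of 2049 bp (11731 regions). The quartiles of the 3 groups overlapped widely, at 14.9 to 19.5, 15.4 to 20.3 and 15.8 to 20.7 per kb. Enhancer regions of 8000 bp or wider, which the rule left out, had 21.1 per kb (2419 regions), and promoter regions had 30.6 per kb (18284 regions). Members made up 7.16% of all regions and held 3.56% of all pseudo-counts. These are descriptions with no test.

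Signal within a run was unevenly divided among its members. The strongest member held a median of 32.9% of its run (11.9% to 63.9%), a median of 1.96 times an equal share. Per kb the contrast was smaller: the highest member of a run was a median of 1.59 times the lowest (1.10 to 4.11). Position within the run made little difference. Members at the 2 ends had 16.8 pseudo-counts per kb and inner members 16.9, at median widths of 2345 and 2534 bp. The strongest member was at an end in 178 runs (30.6%), and 31.9% of all members are at an end.

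The largest run was chr6:118739184-118879944, with 19 regions over 141 kb. Its summed pseudo-counts in replicates 1 to 5 were 1065, 1137, 1172, 957 and 1281 in WT and 1252, 1107, 1047, 1043 and 1294 in Het. The genotypes overlapped fully, at 1122 ± 121 in WT and 1149 ± 117 in Het (SD, n = 5 per genotype). It was also the run with the highest sum. Its strongest region, chr6:118861154-118868181, lay near the right end and had 162 pseudo-counts (23.1 per kb), and its weakest, chr6:118826223-118827113, had 15.0 (16.8 per kb).

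Next in number of regions were chr9:47353484-47480326 (18 regions; 869 ± 72.6 in WT and 932 ± 98.6 in Het), chr13:45859288-45979412 (17 regions; 869 ± 41.8 and 892 ± 93.5), chr15:68792168-68911772 (17 regions; 814 ± 55.6 and 777 ± 39.2) and chr2:5297930-5391748 (15 regions; 710 ± 58.4 and 769 ± 26.9; SD, n = 5 per genotype). None of these runs separated the genotypes. The chr2 run came nearest, with Het higher in 4 of 5 pairs and a log2 difference of 0.12 (SE 0.08, limma unadjusted p = 0.164).

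High sums did not need many regions. The run chr11:31561175-31646626 reached 1109 ± 56.2 in WT and 1092 ± 114 in Het from 10 regions. The 9 regions of chr1:166992661-167063162 reached 1020 ± 32.6 and 990.5 ± 44.9. Means above 1000 pseudo-counts in both genotypes were also found in chr17:5505740-5607714 (14 regions; 1041 ± 29.7 and 1074 ± 67.8) and in chr6:92574276-92641755 (10 regions; 1022 ± 58.3 and 1020 ± 43.0; SD, n = 5 per genotype). The strongest single member of all was chr19:23128078-23134440, at 357 ± 21.7 in WT and 348 ± 21.0 in Het. It was followed by chr1:167000974-167008492 (349 ± 15.9 and 332 ± 22.5), chr6:92609051-92616989 (332 ± 18.8 and 343 ± 36.8), chr14:26402932-26410672 (314 ± 19.2 and 322.5 ± 41.7) and chr11:80414249-80421056 (316 ± 39.9 and 307 ± 43.2). Among these 5 strongest members the log2 difference between genotypes lay between -0.07 and 0.04, each smaller than its SE of 0.09 to 0.10.

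**Figure D2:**
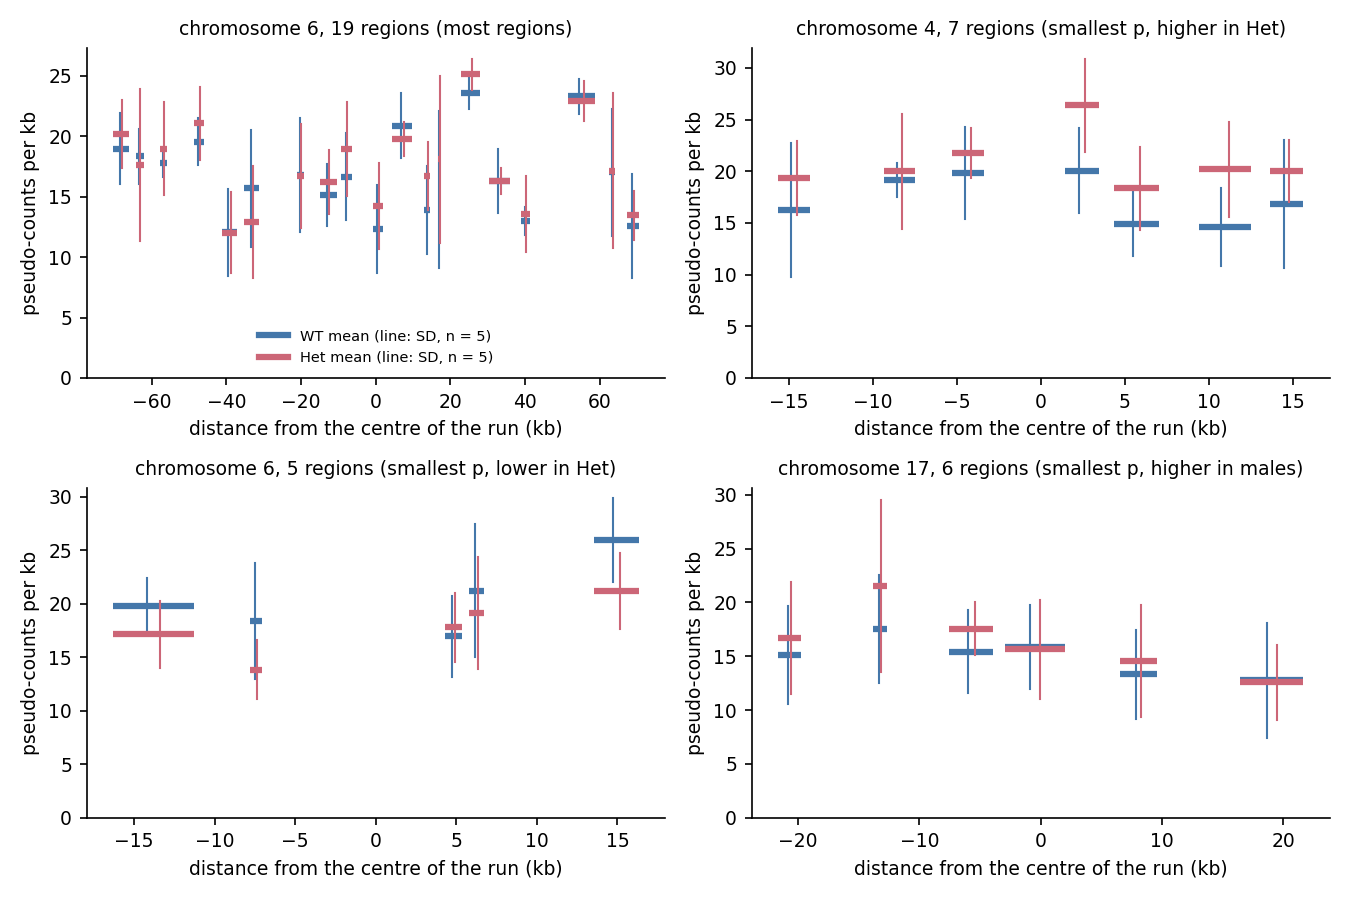
Pseudo-counts per kb (y axis) of each region in 4 runs, against distance from the centre of the run in kb (x axis); horizontal bars span each region at the WT or Het mean and vertical lines show the SD (n = 5 each). In the run of 19 regions (chromosome 6, top left) the WT and Het bars lie close together, while in the run of 7 regions on chromosome 4 (top right) the Het bars lie above the WT bars in all 7 regions, by little in the second from the left.

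The first comparison was between genotypes over whole libraries: how much of each library's signal the clustered enhancers held. In replicates 1 to 5 the share was 3.65%, 3.73%, 3.36%, 3.21% and 3.61% in WT and 3.995%, 3.60%, 3.26%, 3.38% and 3.84% in Het. The ranges overlapped, with means of 3.51% ± 0.217 in WT and 3.62% ± 0.305 in Het (SD, n = 5 per genotype). Within pairs, Het minus WT was 0.35, -0.14, -0.10, 0.17 and 0.23 percentage points, so Het was higher in 3 of 5 pairs and lower in pairs 2 and 3. The mean difference of 0.10 percentage points was smaller than either SD.

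The share moved with a property of the whole library. The strongest 5% of all regions held 30.4%, 30.1%, 31.5%, 33.6% and 30.5% of the signal in WT and 28.2%, 31.0%, 33.2%, 32.4% and 29.5% in Het. In each of the 5 pairs, the animal with more signal in the clustered enhancers had less in the strongest regions. Both shares are parts of the same library total, so opposite movement is partly built in and is no independent observation. Lone distal enhancers and runs of 2 to 4 rose and fell in the same pairs: the median log2 difference of lone distal enhancers was 0.15, -0.08, -0.08, 0.07 and 0.07 in pairs 1 to 5. Taken as a part of enhancer signal alone, members held 8.49% ± 0.193 in WT and 8.60% ± 0.262 in Het (SD, n = 5 per genotype), with Het higher in 4 of 5 pairs. The part that this concentration of signal had in the differences between genotypes was not tested.

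**Figure D3:**
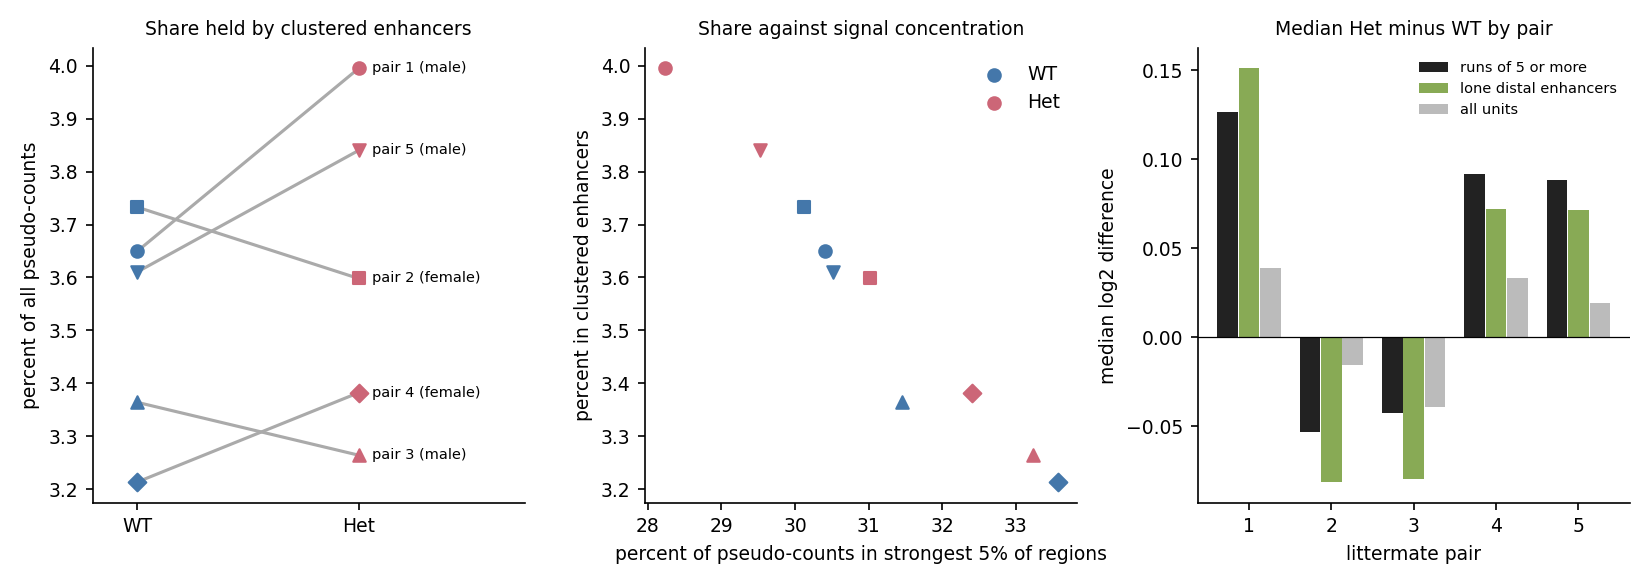
Left, percent of all pseudo-counts held by clustered enhancers in each animal, with lines joining littermates; middle, the same share against the percent held by the strongest 5% of regions; right, median log2 difference of Het minus WT in each pair for runs of 5 or more, lone distal enhancers and all tested units. Pairs 1, 4 and 5 rise from WT to Het and pairs 2 and 3 fall, and libraries with more signal in the strongest regions hold less in clustered enhancers. Both shares are parts of the same library total.

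The second comparison asked which runs or regions differed between Het and WT. The pseudo-counts of each run were summed, log2(value + 1) was fitted with limma with terms for genotype and sex, and p-values were adjusted by Benjamini and Hochberg over all 40205 units, where every other region or smaller run was also a unit. No run passed an adjusted p of 0.05 in either direction (0 of 582). Across all units 0.00249% were called higher and 0% lower in Het. The same held for single members, with 0 of 3644 called where 0.00196% of all 50898 regions were called higher and 0% lower. The smallest adjusted p in limma was 0.9999 among the runs and among the members. With littermate pairs as a block in the fit, again 0 runs and 0 members were called, where 0.00995% of units and 0.00589% of regions were called higher and 0% lower; the smallest adjusted p values were 0.640 and 0.386. Limma-voom on the recovered reads also called 0 of each. In the authors' deposited table no member reached an FDR under 0.05 (0 of 3644, where 0.00393% of all regions did), and the smallest p-value among members was 0.0001596.

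At an unadjusted limma p under 0.05, 9 runs (1.55%) were higher in Het and 0 lower, where 1.25% and 0.614% of all units were. The block raised these counts to 30 runs higher (5.15%, against 2.8% of all units) and 2 lower (0.344%, against 1.68%). Of single members, 82 (2.25%) were higher and 19 (0.521%) lower, where 1.45% and 0.648% of all regions were; with the block the counts were 167 (4.58%, against 3.01%) and 39 (1.07%, against 1.62%). The authors' deposited table listed 70 members with a p-value under 0.05 and a higher value in Het (1.92%, against 1.24% of all regions), and 15 with a lower one (0.412%, against 0.523%). Counted in either direction, 9 runs (1.55%, against 1.86% of all units) and 101 members (2.77%, against 2.1% of all regions) had an unadjusted p under 0.05, and with the block 32 runs (5.5%, against 4.48%) and 206 members (5.65%, against 4.63%). The count of 9 runs depended on single libraries: it was 1 without WT replicate 4 (where 1.43% of all units had such a p), 2 without WT replicate 3 (1.46%), 3 without Het replicate 2 (1.48%), 3 without Het replicate 5 (1.96%) and 5 without Het replicate 1 (1.72%). It was 32 without WT replicate 2 (3.41%) and 57 without Het replicate 3 (5.24%).

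Fitted differences were small and mostly above 0. They were higher in Het for 431 of 582 runs (74.1%, where 51.6% of all units were) and for 2277 of 3644 members (62.5%, where 53% of all regions were). The shares of runs and of all units are not of like units. All units include promoter regions and single enhancers, and their median SE was 0.131, against 0.098 over the runs. The median log2 difference was 0.043 over the runs and 0.046 over the members, beside 0.0045 over all units and 0.0092 over all regions. Runs of 2 to 4 had a median of 0.033 and lone distal enhancers 0.024, while wide enhancers had 0.0097 and promoter regions -0.01. Size of run made no ordered difference, with medians of 0.043 in runs of 5, 0.035 in runs of 6, 0.045 in runs of 7 to 9 and 0.045 in runs of 10 or more. Just outside the rule, the 576 runs of 4 had a median of 0.036. Weaker runs had larger medians, at 0.061 in the lowest of 4 groups of runs ordered by their sums, and 0.044, 0.029 and 0.028 in the next 3 groups. No test was made of these medians.

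The littermate pairs disagreed about the direction. The median log2 difference over the 582 runs was 0.13, -0.05, -0.04, 0.09 and 0.09 in pairs 1 to 5, a mean of 0.04 with an SE of 0.04 over pairs. Runs higher in Het numbered 467 in pair 1, 394 in pair 4 and 419 in pair 5, but 198 in pair 2 and 239 in pair 3. Over all units the pairs had medians of 0.04, -0.02, -0.04, 0.03 and 0.02, with the same signs. The median over members fell to 0.0078 without WT replicate 4, 0.0090 without Het replicate 1, 0.023 without WT replicate 3 and 0.026 without Het replicate 5. It rose to 0.091 without WT replicate 2 and 0.102 without Het replicate 3. With median-of-ratios factors it was 0.025, and the median over all regions moved with it to -0.012. With cyclic loess it was 0.022 over members but 0.052 over runs, of which 77.8% were then higher in Het. That share of runs was 65.8% with median-of-ratios factors and 68.2% with TMM factors. It fell to 55.3% without WT replicate 4, 56.2% without Het replicate 1 and 61.5% without WT replicate 3. It rose to 84.5% without WT replicate 2 and 85.6% without Het replicate 3. The median over members stayed above 0 in each alternative named here, while that over all regions was also below 0 with TMM factors (-0.0059) and without WT replicate 4 (-0.0076) or Het replicate 1 (-0.0033).

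Agreement across all 5 pairs was uncommon. Het was higher in 5 of 5 pairs in 31 runs (5.33%, where 3.44% of all units were) and lower in 5 of 5 in 7 runs (1.2%, where 2.56% were). For members the counts were 178 higher (4.88%, where 3.53% of all regions were) and 58 lower (1.59%, where 2.46% were). The largest class was 238 runs that were higher in 3 of 5 pairs. All Het libraries lay above all WT libraries in 1 run (0.172%, where 0.196% of all units did) and in 12 members (0.329%, where 0.226% of all regions did). All Het libraries lay below all WT libraries in 0 runs (0.162% of all units) and in 2 members (0.0549%, where 0.149% of all regions did). Every member was fitted higher in Het in 56 runs and lower in Het in 7 runs. These last counts have no share over the whole table beside them and are not read as a result. Of single members 62.5% were fitted higher in Het, and of all regions 53%.

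The data set bounds on the change of each run taken alone, not on all runs at once. The fitted differences ran from a fold of 0.866 to 1.22, Het over WT, and their median SE was 0.10 on the log2 scale. The 95% interval of the difference lay inside a 1.5-fold change in either direction for all 582 runs (100%, where 85.1% of all units did) and inside a 1.2-fold change for 308 runs (52.9%, where 19.7% did). A run here sums 5 or more regions and other units do not, so these shares are not of like units. For single members the intervals were wider: 2666 (73.2%, where 79.6% of all regions did) lay inside 1.5-fold and 171 (4.69%, where 14.3% did) inside 1.2-fold.

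**Figure D4:**
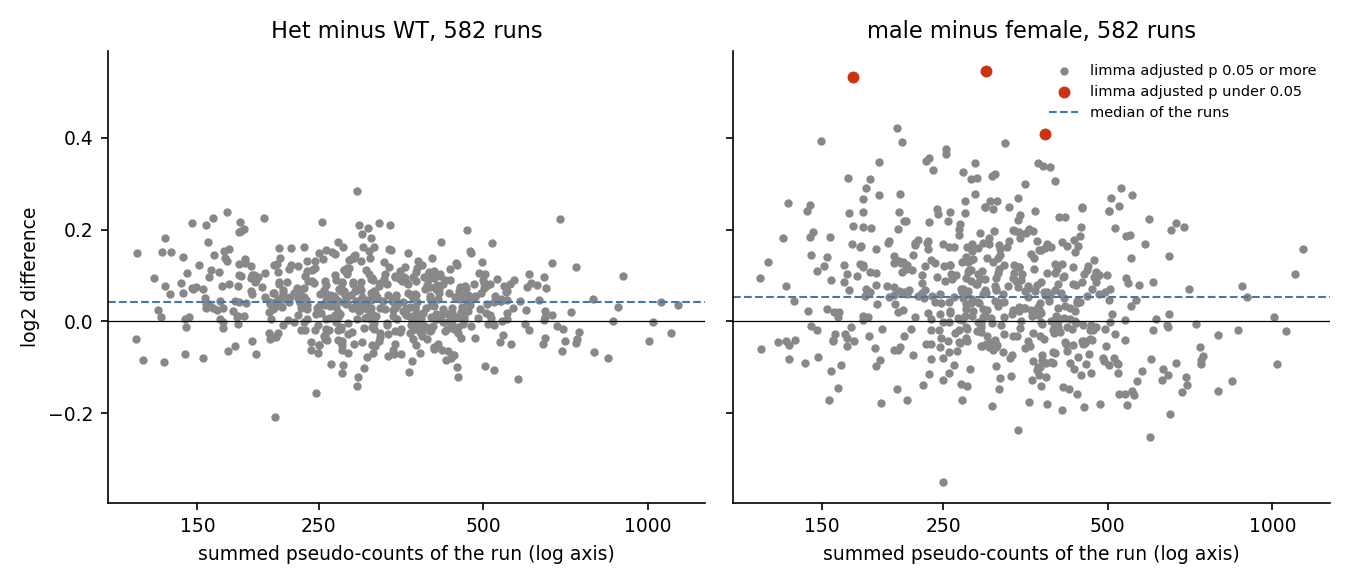
Log2 difference (y axis) of each of the 582 runs against its summed pseudo-counts (x axis, log scale), for Het minus WT (left) and male minus female (right); dashed lines mark the median over the runs and red points those with a limma adjusted p under 0.05. No point is red on the left, where values lie between -0.21 and 0.29, and 3 are red on the right.

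The run with the smallest p for Het against WT was chr4:119914365-119945663, with 7 regions over 31.3 kb. Its sums in replicates 1 to 5 were 271, 295, 220.0, 231 and 309 in WT and 328, 357.5, 269, 303 and 353.5 in Het. Each Het animal exceeded its littermate, but the genotypes overlapped, since the lowest Het value was below 3 of the WT values. The log2 difference was 0.29 (SE 0.11), a fold of 1.22, with an unadjusted p of 0.0117 in limma and an adjusted p of 0.640 with littermate pairs as a block. All 7 regions had fitted values above 0, from 0.01 in chr4:119920713-119922510 to 0.46 in chr4:119939419-119942556, where WT had 45.9 ± 11.8 and Het 63.3 ± 14.4 (SD, n = 5 per genotype).

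Another run on chromosome 4, chr4:32412692-32501905 with 11 regions, had sums of 679, 686, 591, 487 and 746 in WT and 817, 709, 653, 647.5 and 883 in Het. It was also higher in Het in 5 of 5 pairs, with overlap between the genotypes and a log2 difference of 0.22 (SE 0.10, limma unadjusted p = 0.0355, adjusted p = 0.960 with the block). This run held the member with the smallest p of all. That member, chr4:32412692-32415490 at the left end of the run, had 73.1, 75.9, 58.2, 67.9 and 75.8 pseudo-counts in WT and 96.3, 107, 103, 81.1 and 101 in Het. No Het value reached down to a WT value. The log2 difference was 0.47 (SE 0.12), a fold of 1.385, with an unadjusted limma p of 0.000539 and an adjusted p of 0.386 with the block. Next to it, chr4:32422798-32426190 had 46.7 ± 12.7 in WT and 47.0 ± 10.2 in Het, a log2 difference of 0.02. The difference was thus uneven along the run, and chr4:32457415-32464248 in its middle had 107 ± 18.0 in WT and 136 ± 18.99 in Het (SD, n = 5 per genotype), a log2 difference of 0.35.

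The next 3 runs complete the 5 with the smallest p and a higher value in Het. The run chr6:54320787-54363999 (6 regions) had 267, 328, 300.4, 264 and 275 in WT and 326, 350, 313, 325.5 and 334 in Het, a log2 difference of 0.20 (SE 0.09). In chr16:35581010-35615163 (5 regions) the values were 181.5, 166, 159, 155 and 168 in WT and 187, 189, 178, 190.5 and 222 in Het, a log2 difference of 0.22 (SE 0.10). In chr1:170181035-170250318 (10 regions) they were 465.5, 458, 380, 420 and 452 in WT and 527, 512, 432, 507 and 518 in Het, a log2 difference of 0.20 (SE 0.09). Each was higher in Het in 5 of 5 pairs, and each had 1 or more Het animals within the WT range. Unadjusted limma p values were 0.0324, 0.0334 and 0.0363, and the adjusted p was 1 for each, with and without the block.

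Runs with lower values in Het had larger p values. The 5 regions of chr6:38734860-38767488 summed to 243, 241.5, 239, 169 and 225 in WT and 219, 203, 172, 174 and 193 in Het. WT replicate 4 lay below all Het animals and the other 4 WT animals above them. The log2 difference was -0.21 (SE 0.11, limma unadjusted p = 0.059). The run chr1:94927127-94969891 (5 regions) was lower in Het in 5 of 5 pairs, with 261 ± 26.5 in WT and 234 ± 20.8 in Het and a log2 difference of -0.16 (SE 0.10). So was chr18:24886312-24948371 (7 regions), with 602 ± 26.8 and 553 ± 48.6 and a log2 difference of -0.125 (SE 0.09). The remaining 2 of the 5 were chr19:57220193-57264268 (-0.12, SE 0.10) and chr7:17139894-17179456 (-0.14, SE 0.11). These values are in the same direction in 3 and 4 of 5 pairs.

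**Figure D5:**
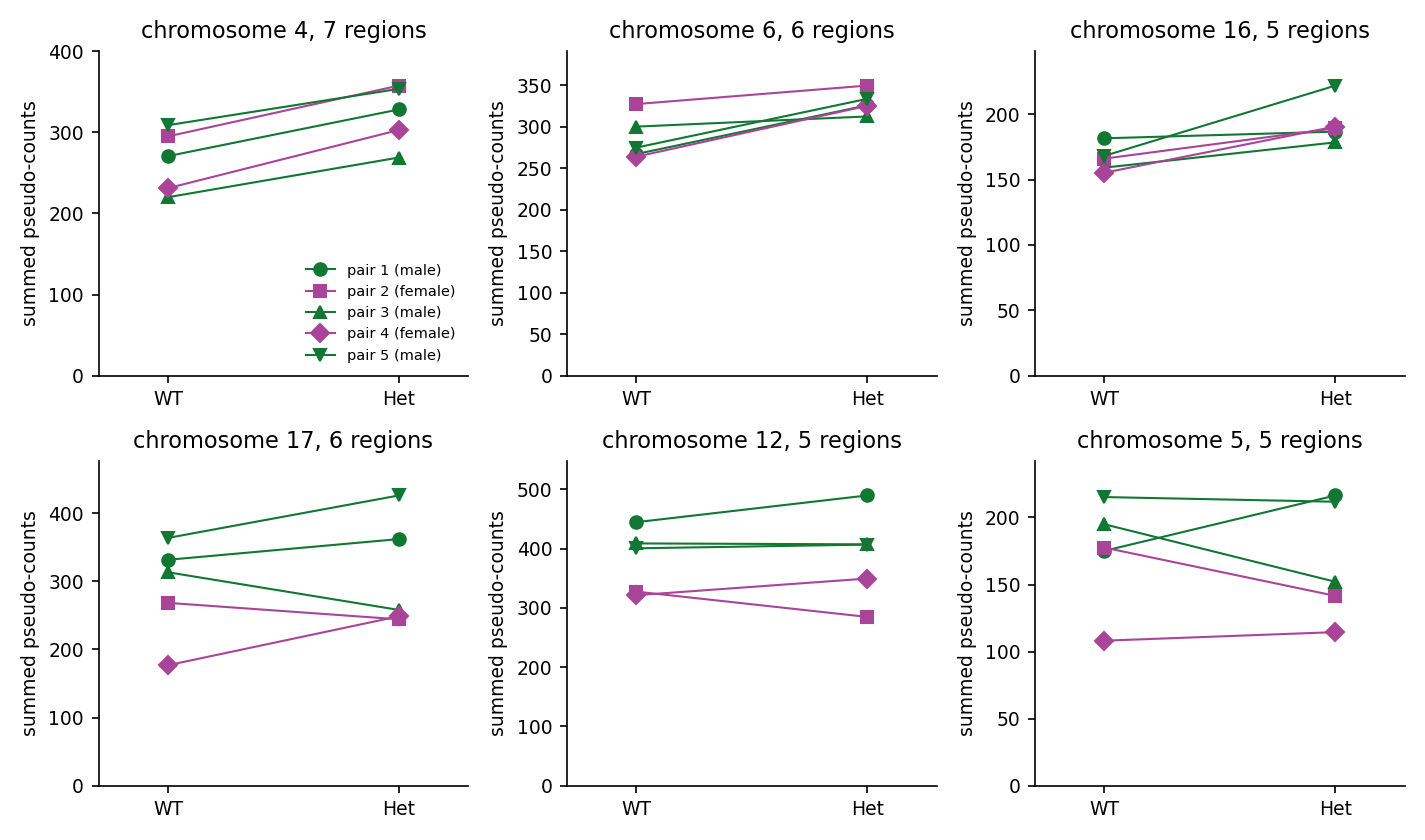
Summed pseudo-counts (y axis) of 6 runs in each WT and Het animal, with lines joining littermates and colours giving sex; top row, the 3 runs with the smallest p and higher values in Het, bottom row, the 3 runs called between males and females. In the top row each line rises from WT to Het, and in the bottom row female pairs 2 and 4 lie mostly below the male pairs while lines run in both directions.

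Among single members, the other regions with the smallest p and higher values in Het were chr5:66900696-66902499 (18.4 ± 6.00 in WT and 31.7 ± 6.72 in Het, log2 difference 0.80 with SE 0.23), chr1:154422904-154426844 (47.4 ± 5.82 and 67.9 ± 18.9, 0.47 with SE 0.15), chr1:62853243-62857664 (71.7 ± 3.95 and 94.1 ± 10.5, 0.38 with SE 0.12) and chr3:105306928-105311362 (62.6 ± 8.51 and 84.8 ± 15.7, 0.42 with SE 0.14; SD, n = 5 per genotype). The largest of these folds was in the weakest region. In chr1:62853243-62857664 the WT animals had 76.3, 70.5, 70.9, 74.5 and 66.2 pseudo-counts and the Het animals 105, 87.8, 95.1, 103 and 79.8. The genotypes did not overlap there. The adjusted limma p was 1 for each of the 4 and, with the block, 0.614, 0.822, 0.921 and 0.791.

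On the lower side the first was chr10:108216816-108220651, in a run of 10 regions. Its values were 90.9, 94.4, 73.3, 112 and 104 in WT and 65.8, 74.6, 78.5, 69.8 and 66.7 in Het. WT replicate 3 was within the Het range and the other 4 WT animals were above it. The log2 difference was -0.40 (SE 0.125, limma unadjusted p = 0.00285, adjusted p = 0.837 with the block). It was followed by chr19:57253206-57256001 (57.2 ± 3.77 in WT and 41.3 ± 11 in Het, log2 difference -0.50), which was lower in Het in 5 of 5 pairs, and by chr7:91208096-91209393 (31.95 ± 3.18 and 22.2 ± 5.83, -0.54), also lower in 5 of 5. The last 2, chr7:17178512-17179456 (21.0 ± 1.99 and 13.6 ± 6.50, -0.72) and chr2:52880764-52881865 (24.3 ± 2.83 and 16.1 ± 6.26, -0.64), had few reads and a wide spread among Het animals (SD, n = 5 per genotype). Over the alternatives run, limma adjusted p values ranged from 0.386 to 1 for these 10 named members and from 0.640 to 1 for the 10 named runs of this comparison.

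The third comparison was between the sexes, which differ between litters and not within them, so sex and litter cannot be told apart. These fits counted littermates as separate replicates (6 males and 4 females from 3 and 2 pairs), which makes their p-values too small where littermates vary together. In them, 3 of 582 runs (0.515%) had an adjusted p under 0.05 and were higher in males, where 0.933% of all units were. No run was called lower in males, where 0.0746% of all units were, and 6 (1.03%, against 4.82%) were lower at an unadjusted p under 0.05. Of single members, 11 (0.302%) were called higher in males, where 0.841% of all regions were, and 0 lower, where 0.0629% were. Both shares were thus under those of the whole table. At an unadjusted p under 0.05, 70 runs (12%, against 9.46% of all units) and 289 members (7.93%, against 8.96% of all regions) were higher in males, and 66 members (1.81%, against 4.25%) were lower. The sexes did not overlap in 11 runs higher in males (1.89%, against 2.53% of all units) and in 0 runs lower in males (against 0.928%). Among members, 50 were higher without overlap (1.37%, against 2.28% of all regions) and 16 lower (0.439%, against 0.866%). The median log2 difference was 0.05 over the runs and 0.02 over all units.

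With the log2 values of each pair averaged first, 3 male pairs against 2 female pairs, limma called 0 runs and 0 members, where 0.0274% of all units and 0.0334% of all regions were called. At an unadjusted p under 0.05 there were then 34 of 582 runs and 224 of 3644 members, where 9.09% of units and 8.56% of regions had such a p. The adjusted p of the 3 runs was 0.134, 0.199 and 0.154 in that fit, in the order in which they are described next. The calls therefore hold only with animals as replicates, and they also depended on single libraries. Run calls were 0 without WT replicate 3, 4 or 5 and 0 without Het replicate 1, 2, 4 or 5. In those fits 0.0149% to 0.216% of all units were called. Run calls were 2 (0.344%, against 0.793% of all units) without WT replicate 1 and 17 (2.92%, against 2.35%) without WT replicate 2. Without Het replicate 3 they were 58 (9.97%, against 8.67%). Member calls were 0 without WT replicate 3 or 4 and 0 without Het replicate 1, 2 or 4, where 0.0275% to 0.183% of all regions were called. There was 1 (0.0274%) without WT replicate 5 or Het replicate 5, against 0.251% and 0.187% of all regions. Without WT replicate 1 there were 5 (0.137%, against 0.774%), and without WT replicate 2 there were 35 (0.96%, against 1.92%). Without Het replicate 3 there were 154 (4.23%, against 7.03%). Median-of-ratios factors left 1 run (0.172%, against 0.4% of all units) and 1 member (0.0274%, against 0.185% of all regions).

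The run with the smallest p was chr17:86971801-87015160, with 6 regions. Males had 331, 313 and 363.5 in WT and 362, 258 and 426 in Het, and females had 268 and 177 in WT and 244 and 248.5 in Het. Het replicate 3 was the only male within the female range. The log2 difference was 0.545 (SE 0.12, limma adjusted p = 0.0265), a fold of 1.46, and all 6 regions had fitted values above 0, from 0.39 in chr17:86985951-86989584 to 0.67 in chr17:87009939-87015160. The adjusted p ranged from 0.000224 to 0.237 when single animals were left out, and up to 0.634 when pairs were.

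In chr12:117525082-117566632 (5 regions), males had 444.5, 409 and 400.4 in WT and 490, 407 and 407 in Het, and females had 327 and 321 in WT and 285 and 349 in Het. Here all 6 males lay above all 4 females, with a log2 difference of 0.41 (SE 0.09, limma adjusted p = 0.0314). The adjusted p was 0.0788 with median-of-ratios factors and 0.0624 with TMM factors, and it ranged from 0.0033 to 0.367 over all alternatives run. The called run chr5:66754461-66799859 (5 regions) had 194 ± 26.01 in males (n = 6) and 135 ± 31.6 in females (n = 4), a log2 difference of 0.53 (SE 0.13, limma adjusted p = 0.0353), and the sexes overlapped through WT replicate 2 at 177.5. With median-of-ratios factors its adjusted p was 0.051, and the range over all alternatives run was 0.00159 to 0.918.

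Next came 2 runs higher in males that did not pass, chr7:140210292-140259844 (358 ± 46.1 in 6 males and 273 ± 33.6 in 4 females, limma adjusted p = 0.0627) and chr1:154400302-154430502 (279 ± 37.2 and 214.5 ± 29.05, limma adjusted p = 0.0633). In the other direction the first was chr8:56097030-56134055, at 225 ± 36.4 in males and 286 ± 39.7 in females, a log2 difference of -0.35 (SE 0.115, limma adjusted p = 0.128). The next 4 lower in males were chr6:135914794-135948526 (-0.24), chr8:70245534-70299484 (-0.25), chr12:96951401-97015815 (-0.20) and chr12:11352839-11400537 (-0.18), with limma adjusted p values from 0.225 to 0.339.

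Of the 11 members called between the sexes, 3 lay in the 3 called runs: chr17:86990536-86995467, chr12:117549683-117557174 and chr5:66796131-66799859. The remaining 8 were each in a run that was not called. First by p was chr7:117881965-117885449, with 84.05, 64.3 and 65.1 pseudo-counts in WT males, 59.96, 48.6 and 69.1 in Het males, 43.7 and 33.2 in WT females and 43.6 and 36.9 in Het females. Males and females did not overlap. The log2 difference was 0.70 (SE 0.16, limma adjusted p = 0.0236). Largest in fold was chr16:35267690-35270654 (42.7 ± 12.7 in 6 males and 22.4 ± 5.76 in 4 females, log2 difference 0.88, limma adjusted p = 0.0349). The least spread among males was in chr17:81095899-81099729, at 98.5 ± 3.29 in males and 71.4 ± 6.23 in females (log2 difference 0.46, limma adjusted p = 0.0456). The others were chr12:81938196-81942257, chr9:115122493-115125431, chr10:70490518-70492590, chr19:38099380-38106160 and chr16:4394799-4401913, with log2 differences from 0.44 to 0.74. When each of the 10 animals was left out in turn, the 11 members passed in 1 to 5 of the 10 fits each.

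Whether the genotype difference itself varied with sex was fitted as an interaction. No run had an adjusted limma p under 0.05, and 0 of 582 had an unadjusted p under 0.05, where 1.17% of all units did and 0% were called. Of members, 0 were called, where 0% of all regions were, and 48 (1.32%, against 1.36%) had an unadjusted p under 0.05. The interaction with the smallest p was in chr12:70931930-70965836 (6 regions). Its sums in replicates 1 to 5 were 149.6, 179, 142, 164 and 142 in WT and 184, 151, 157, 145.5 and 159 in Het. Het was higher in the 3 male pairs and lower in the 2 female pairs, an interaction of 0.41 on the log2 scale (SE 0.20, limma unadjusted p = 0.0529, adjusted p = 1). It was followed by 2 runs on chromosome 16, chr16:6510741-6572657 (0.38, SE 0.19) and chr16:7075515-7112657 (0.395, SE 0.21). With 2 female pairs the interaction has little precision.

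Summed runs varied less between animals than single members. The median coefficient of variation within genotype was 19.6% for single members and 11.1% for runs (5th to 95th percentile 5.45% to 18.9%). For the 290 runs in the middle range of sums, from 238 to 413.5 pseudo-counts, it was 10.7%. Single enhancer regions in that range of values had 10.6% (888 regions) and promoter regions 11.7% (2168 regions).

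Neighbouring members varied together only weakly. Over 3062 pairs of adjacent members, values across the 10 libraries had a median Pearson r of 0.30, beside 0.21 for as many pairs of members on different chromosomes. With each library's median removed, the values were 0.11 and 0.0018, and r was above 0 in 59.5% and 50.2% of the pairs. Across pairs, the Het minus WT differences of neighbours had r = 0.09, beside 0.02 for members on different chromosomes, and the male minus female differences had r = 0.21 and 0.0040. Neighbours had the same sign of Het minus WT in 56.1% of pairs, beside 53.5%. These correlations are descriptions over regions that share the same 10 libraries, their depth and their litters, and at the counts of single members weak values carry no finding.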

How the data were processed

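H3K27ac ChIP-seq libraries of 5 Het and 5 WT mice were analysed. The submitters' processing notes list Bowtie2, edgeR and the build mm9 as what the authors used. Tool versions, and how regions were called and classed, are not stated in the sources used here. Per the file headers, the deposited signal is a pseudo-count per region and animal, and the authors' own test of Het against WT is given in log2 units with its p-value and FDR. Pseudo-counts of this kind are drawn towards group means where depth differs, so the deposited signal already carries the genotype labels.

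The distal regions were joined into runs as described. Their pseudo-counts were summed, and log2(value + 1) was fitted with limma 3.58.1 (trend and robust) in R 4.3.3 over all 10 animals, with genotype and sex as terms, once over 50898 regions and once over 40205 units. Benjamini-Hochberg adjusted p-values under 0.05 were calls. Widths are end minus start. Reads were recovered by inverting the authors' adjustment at a dispersion of 0.0151, estimated from the values. All values (100%) came within 0.1 read of a whole number, and 9 deposited as 0 were set to 0 reads; these reads served for depth and for limma-voom. The limma fit and the recovery of reads were tested on simulated data.

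The labels name littermates, and the column names join the 2 animals of pair 5, so replicate numbers pair the samples. With each library's median removed, deviations of the runs from group means correlated at 0.38, 0.34, -0.06, 0.47 and 0.61 within pairs 1 to 5. Both animals of pair 3 correlated better outside the pair: WT replicate 3 with Het replicate 5 (0.31) and Het replicate 3 with WT replicate 4 (0.45). Het replicate 2 correlated with WT replicate 4 (0.33) nearly as well as with its littermate.

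Runs named were the 5 with most members, the 5 with the highest sums, all calls and, by p, the first 5 of either direction (3 for the interaction). Members were named likewise. The members and lists were chosen with earlier results of these data known. No genes were named and no sequences shown, because no mm9 annotation or genome was used here; the gene and marker lists drawn up for that case were not used. Alternatives were other pseudocounts, filters, scalings, thresholds and joining rules, single animals left out and littermates as a block. Limma-voom, with and without that block, fits without 1 pair, and male against female on pair means were added after seeing the data.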

Additional observations from a re-analysis of the deposited data

Results flagged for a closer look

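Single outlying animals were sought in whole-library measures and in the runs and regions named above, except the single members called between the sexes. In 13 of 208 groups of 4 to 6 animals, 1 animal was far from the rest (a gap larger than Dixon's 95% limit). By chance, about 1 in 20 such groups is flagged. Het replicate 1 stood above the other Het animals in chr9:47353484-47480326, at 1102 pseudo-counts against 859 to 917, and above the other males there (829.5 to 917). It also stood above them in chr15:68792168-68911772 (845 against 750.3 to 774) and in chr16:7075515-7112657 (332 against 259 to 274). Het replicate 5 was the highest Het animal in chr11:31561175-31646626 (1289 against 1000 to 1071), chr1:166992661-167063162 (1068 against 951 to 983) and chr16:35581010-35615163 (222 against 178 to 190.5). It was the lowest in chr18:24886312-24948371, at 468 against 562 to 589 in the other Het animals and 562 to 599.5 in the other males. Het replicate 3 was low in chr1:170181035-170250318 (432 against 507 to 527) and, among males, in the region chr7:17178512-17179456 (8.69 against 18.0 to 21.7). WT replicate 4 was low in chr6:38734860-38767488 (169 against 225 to 243), and WT replicate 2 was high in chr16:7075515-7112657 (326 against 229 to 248.5).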

How the results depend on the processing

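Het against WT called 0 runs and 0 members, and the interaction 0 runs, under each alternative run, limma-voom and leaving out any animal or pair included. With littermate pairs as a replicate block the median over members stayed at 0.046 and Het calls among members, runs and interactions stayed at 0; over the whole table they went from 1 to 3 regions and from 1 to 4 units. Sex is constant within pairs, so no block could be fitted for it; averaging pairs left 0 member and 0 run calls. The median ranged from 0.0078 to 0.10 with single animals left out, and the share difference from 0.041 to 0.16 percentage points with single pairs left out. Sex calls moved most. For members (11 as reported) they were 1 with median-of-ratios factors (0.0274%, against 0.185% of all regions) and 4 with TMM factors (0.11%, against 0.399%). Cyclic loess gave 21 (0.576%, against 1.67%), 4 of them lower in males. A threshold of 0.10 gave 28 (0.768%, against 2.25%), and leaving out pair 2 gave 20 (0.549%, against 0.866%). Member calls were 0 to 154 with single animals left out and 0 to 177 with single pairs left out. The highest of these, 4.23% and 4.86% of members, stood beside 7.03% and 7.83% of all regions. For runs (3) they were 1 with median-of-ratios factors (0.172%, against 0.4% of all units) and 8 with cyclic loess (1.37%, against 1.73%). At 0.10 they were 14 (2.41%, against 2.91%), and without pair 2 they were 6 (1.03%, against 0.995%). Run calls were 0 to 58 without single animals and 0 to 77 without single pairs. The highest were 9.97% and 13.2%, beside 8.67% and 9.75% of all units. The cause was not tested; leaving animals out also lowers the number of animals. Other gaps, promoter distances and minimum run sizes gave from 477 to 9653 members and 0 Het calls. No member median, named run or named region changed direction, but the medians over all regions and all units did. Depth limits single members: the median one held 21 reads in WT replicate 5.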
